A study of Mus musculus with 16 samples.

Results

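Donor CD8+ T cells were set against donor CD4+ T cells taken from the spleens of mice after syngeneic haematopoietic stem cell transplantation, a transplant between genetically matched animals in which the grafted T cells meet no foreign histocompatibility antigens. The comparison used 5 of the 16 one-colour expression arrays of the series, chosen by their titles: 3 of splenic CD8 cells (Spleen_CD8_Syn) and 2 of splenic CD4 cells (Spleen_CD4_Syn). All 5 were described as female, with the strain background C57BL/6. The labels named no allele, drug or time after transplantation and did not say what conditioning the recipients received. The study as a whole concerns donor T cells in graft-versus-host disease of the ovary, and its other arrays hold allogeneic splenic CD8 (3) and CD4 (2) cells and T cells from the ovary. Each sample was a small population of cells, sorted in succession into Trizol, whose RNA was amplified with a low-input kit and labelled with Cy3. The labels did not say whether the arrays of a group came from separate mice, so the spread that p-values measure may be technical. That spread was estimated within the 6 groups of all 16 arrays, and not from these 5 arrays alone. The question was how the subsets differed where no alloresponse was under way.

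CD4 and CD8 T cells leave the thymus from a common precursor that carries both coreceptors. CD8 binds class I histocompatibility molecules and marks cells that mature into killers, which store perforin and granzymes in secretory granules; the transcription factors RUNX3 and EOMES are tied to that fate. CD4 binds class II molecules and marks helper cells, whose choice depends on the factor ThPOK, encoded by Zbtb7b; they secrete cytokines such as interleukin-4 and interleukin-21, give help to B cells in follicles, and include regulatory T cells that depend on Foxp3. After transplantation the spleen also holds dendritic cells, macrophages, B cells, natural killer cells and erythroid cells.

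The stretches of 250 bases before the annotated start are shown for 4 called genes of different roles, a CD8 coreceptor chain (Cd8a), a cytotoxic granule gene (Nkg7), the regulatory T-cell factor (Foxp3, at the outermost of 2 listed starts) and the helper cytokine (Il4, likewise). They were taken from RefSeq on GRCm38.p6 and run 5′ to 3′ on the gene's strand. Capitals mark matches, on either strand, to the RUNX core TGTGGT, the T-box core GGTGTGA, the NFAT core GGAAAA, the GATA core AGATAA or the TATA box TATAAA.
Cd8a, chr6:71373177-71373426, plus strand: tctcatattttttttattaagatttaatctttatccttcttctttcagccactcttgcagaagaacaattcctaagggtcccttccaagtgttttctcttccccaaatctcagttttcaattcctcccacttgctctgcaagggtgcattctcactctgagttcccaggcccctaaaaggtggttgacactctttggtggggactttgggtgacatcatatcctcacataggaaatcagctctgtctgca
Nkg7, chr7:43436888-43437137, plus strand: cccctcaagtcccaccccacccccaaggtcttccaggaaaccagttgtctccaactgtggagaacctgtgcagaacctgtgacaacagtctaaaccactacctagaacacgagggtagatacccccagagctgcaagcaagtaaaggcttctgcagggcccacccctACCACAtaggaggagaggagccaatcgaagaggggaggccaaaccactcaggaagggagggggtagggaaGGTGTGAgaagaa
Foxp3, chrX:7579426-7579675, plus strand: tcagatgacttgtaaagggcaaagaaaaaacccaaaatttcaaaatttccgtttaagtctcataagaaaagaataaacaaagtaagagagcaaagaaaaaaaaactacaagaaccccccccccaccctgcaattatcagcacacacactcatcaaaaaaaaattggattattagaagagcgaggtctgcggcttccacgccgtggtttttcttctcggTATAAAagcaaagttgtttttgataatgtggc
Il4, chr11:53618666-53618915, minus strand: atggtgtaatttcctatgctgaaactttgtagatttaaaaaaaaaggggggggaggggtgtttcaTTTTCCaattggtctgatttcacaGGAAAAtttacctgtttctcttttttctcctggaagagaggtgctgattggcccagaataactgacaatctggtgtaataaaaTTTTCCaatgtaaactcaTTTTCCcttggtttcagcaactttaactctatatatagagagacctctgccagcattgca
Nkg7 held a RUNX match 83 to 78 bases before the start and a T-box match 13 to 7 bases before it. Il4 held 4 NFAT matches, Foxp3 a TATA match 32 to 27 bases before this start, and the Cd8a window 0 matches to these 5 strings. No matches overlapped each other. Among 32851 promoter windows of the same length, 14% held the RUNX core, 3.33% the T-box core, 20.4% the NFAT core, 9.99% the GATA core and 12.4% the TATA box. Of the genes whose expression was higher in CD8 cells (below), 171 had a window and 18.7% of these held the RUNX core, beside 16.7% of the 383 lower genes and 13.5% of 10432 genes tested. In the same order the shares were 5.26%, 4.7% and 3.59% for the T-box core, 18.7%, 22.7% and 21.5% for the NFAT core, 13.5%, 8.09% and 8.07% for the GATA core and 12.3%, 9.4% and 8.98% for the TATA box; these shares were not tested. The Eomes and Il2ra windows also held 0 matches. A match describes letters only and is not a binding site.

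Expression is given as a level, the log2 of a probe's processed signal minus the 75th percentile of its array, so that a level of 0 is the 75th percentile and 1 unit is a 2-fold change. The 75th percentile of the 3 CD8 arrays was 245, 221 and 156 signal units and that of the 2 CD4 arrays 316 and 181, with 52.0% to 55.0% and 53.4% to 58.7% of spots well above background. Array 1 of each subset lay on slide 1, and CD8 arrays 2 and 3 and CD4 array 2 on slide 2. Correlations across genes were 0.980 to 0.991 among CD8 arrays, 0.979 between the CD4 arrays and 0.953 to 0.972 between the subsets (Pearson's r; genes are not independent replicates). The deviations of CD8 array 3 and CD4 array 2 from their group means correlated at 0.554 across genes. With 2 CD4 arrays such deviations mirror each other (-0.554 with CD4 array 1), so the correlation cannot show which CD4 array stood apart. CD8 array 3 and CD4 array 2 stood apart in some genes of other cells. Compared with the rest of their subset, both had higher levels of the erythroid genes Hba-a1 and Alas2 and the granulocyte genes S100a8 and S100a9. The adaptors Tyrobp and Fcer1g were also higher on both. Of the macrophage markers, Csf1r and Lyz2 followed that pattern, and C1qa, C1qb and Cd14 did not. Hba-a1, an alpha-globin gene of red cells, stood at 1.93, 2.07 and 3.81 on the CD8 arrays, against 4.14 and 5.46 on the CD4 arrays, and S100a9, a calprotectin chain of neutrophils, at -2.85, -5.08 and 0.63, against -4.03 and 5.26. Results were therefore also computed without those 2 arrays.

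Coreceptor genes followed the sort labels. Cd8a, which encodes the alpha chain of CD8, stood at 5.14, 5.06 and 4.71 on the CD8 arrays, against -6.09 and -4.48 on the CD4 arrays, neither of which was well above background. It was at least 589.6-fold higher in CD8 cells (the CD8 mean set against the lowest signal that counts as well above background on the CD4 arrays). Cd4 stood at 2.12, 2.33 and 2.45 on the CD8 arrays, against 4.52 and 4.48 on the CD4 arrays, a difference of -2.20 ± 0.21 (log2, ± SE; adjusted p = 8.77e-05, limma). A further Cd4 probe differed by -3.83. The Cd4 probe given was thus lower in CD8 cells on every array but well above background on all 3. Of the CD3 chains that both subsets carry, Cd3e differed by 0.31 ± 0.20 (adjusted p = 0.592), Cd3d by 0.28 ± 0.16 (0.503) and Cd3g by 0.06 ± 0.21 (0.979).

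In all, 998 of 25297 features were called at an adjusted p under 0.05 (3.95%), 314 of them higher in CD8 cells (1.24%) and 684 lower (2.7%). Named genes made up 724 of the calls, 214 higher and 510 lower. The arrays of the subsets did not overlap for any of the 998, which was also true of 34.5% of all features. Lower calls were the larger ones: the median size was 1.54 log2 units for higher and 2.16 for lower features, and for 194 of the lower features, against 42 of the higher, the other subset had no array well above background. Those features passed the filter only through the subset where they were high, which took 2 CD4 or 3 CD8 arrays. With a filter on all 5 arrays, 208 features were higher and 329 lower. The part of the filter in the imbalance was not tested. The median difference of all features was 0.105. Within slide 1 alone 591 features were called and within slide 2 alone 0 (limma; 2328 at an unadjusted p under 0.05), with slide as a block 1340, and without CD8 array 3 and CD4 array 2 434. On slide 1 the contrast was 1 array against 1, without replication, and its spread came from other groups. Slide 2, and the fit without CD8 array 3 and CD4 array 2, had 1 CD4 array. With every level raised to at least -2.5, the limit on the dimmest array of the series, 605 features were higher and 635 lower.

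**Figure D1:**
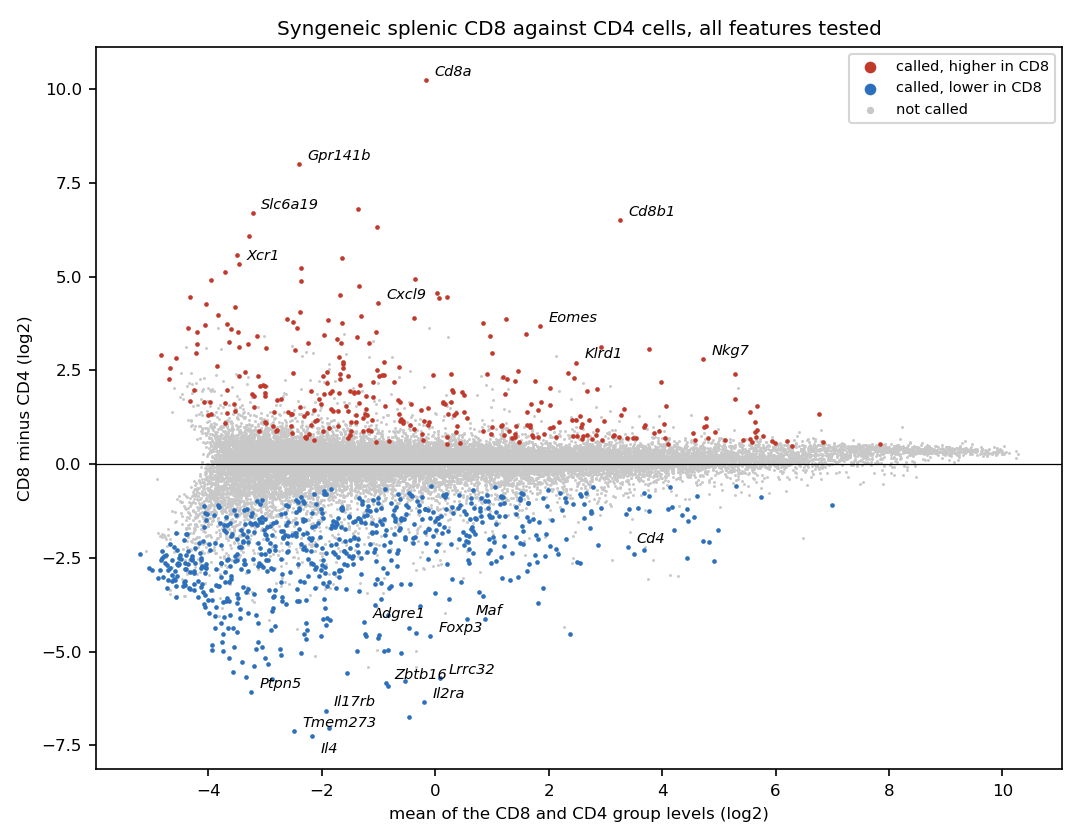
The difference between the subsets (CD8 minus CD4, log2) is plotted against the mean of both group levels for all 25297 features, with the 314 called higher in CD8 cells and the 684 called lower coloured and selected genes named. Cd8a lies apart at 10.25, and most of the calls below 0 have a mean level under the 75th percentile.

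The gene lists below were chosen with earlier results of these data known, and some genes are in several lists. The CD8 lineage list, which also holds cytotoxic genes, had the highest share of calls on the higher side. Of 15 measured, 12 were called higher in CD8 cells and 0 lower, with a median difference of 2.19, beside 0.105 for all features. Cd8b1, the CD8 beta chain and a neighbour of Cd8a, stood at 6.74, 6.51 and 6.31 on the CD8 arrays, against -0.15 and 0.17 on the CD4 arrays, a difference of 6.51 ± 0.28 (adjusted p = 1.85e-07). Its groups lay far apart, although both CD4 arrays were above background. Eomes, the T-box factor of memory and effector CD8 cells, stood at 3.46, 3.63 and 3.99, against -0.23 and 0.24 (3.69 ± 0.23, adjusted p = 3.22e-06). Runx3, the factor that silences Cd4 in the CD8 lineage, differed less, with 1.44, 1.85 and 1.5 on the CD8 arrays, against 0.84 and 0.82 on the CD4 arrays (0.77 ± 0.18, adjusted p = 0.0287). That call was lost when CD4 array 1, CD8 array 2 or CD4 array 2 was left out (adjusted p = 0.13, 0.108 and 0.202). For Tbx21, the T-box factor T-bet, the arrays overlapped at 2.04, 1.70 and 3.31, against 2.88 and 2.98 (-0.58 ± 0.37, adjusted p = 0.586).

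Within the cytotoxic granule list of 19 measured genes, 5 were higher in CD8 cells, 2 lower and 12 not called. Those 5 higher genes are also in the CD8 lineage list. Nkg7, a granule membrane protein needed for exocytosis, stood at 6.16, 6.10 and 6.15 on the CD8 arrays, against 3.42 and 3.22 on the CD4 arrays (2.81 ± 0.17, adjusted p = 2.81e-06). Gzmm, granzyme M, stood at 2.97, 2.55 and 4.49, against 0.24 and -0.50 (3.47 ± 0.51, adjusted p = 0.00181), and CD8 array 3 was the highest. Ctsw (cathepsin W) differed by 2.19 ± 0.24, Cst7 (cystatin F) by 2.01 ± 0.24 and the pore-forming perforin, Prf1, by 1.4 ± 0.17 (adjusted p = 0.000252, 0.000506 and 0.000569). The classical granzymes did not pass the test. Gzmb stood at -0.49, -1.58 and -2.47 in CD8 cells, against -2.03 and -2.74 in CD4 cells (adjusted p = 0.42), Gzma differed by 0.88 ± 0.80 (0.767) and Gzmk by 0.18 ± 0.36 (0.934). The members lower in CD8 cells were the death ligand Fasl, at -0.20, -0.04 and -1.02, against 1.55 and 1.23 (-1.81 ± 0.37, adjusted p = 0.0148), and Gzmc, granzyme C, which was well above background on 1 CD8 array (-1.81 ± 0.41, adjusted p = 0.0283; up to 0.221 in 4 of the 5 fits that left out 1 array). Without either CD4 array Fasl lost its call (adjusted p = 0.12 without array 1 and 0.079 without array 2), and 5 to 7 members of the list were called when 1 array was left out.

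**Figure D2:**
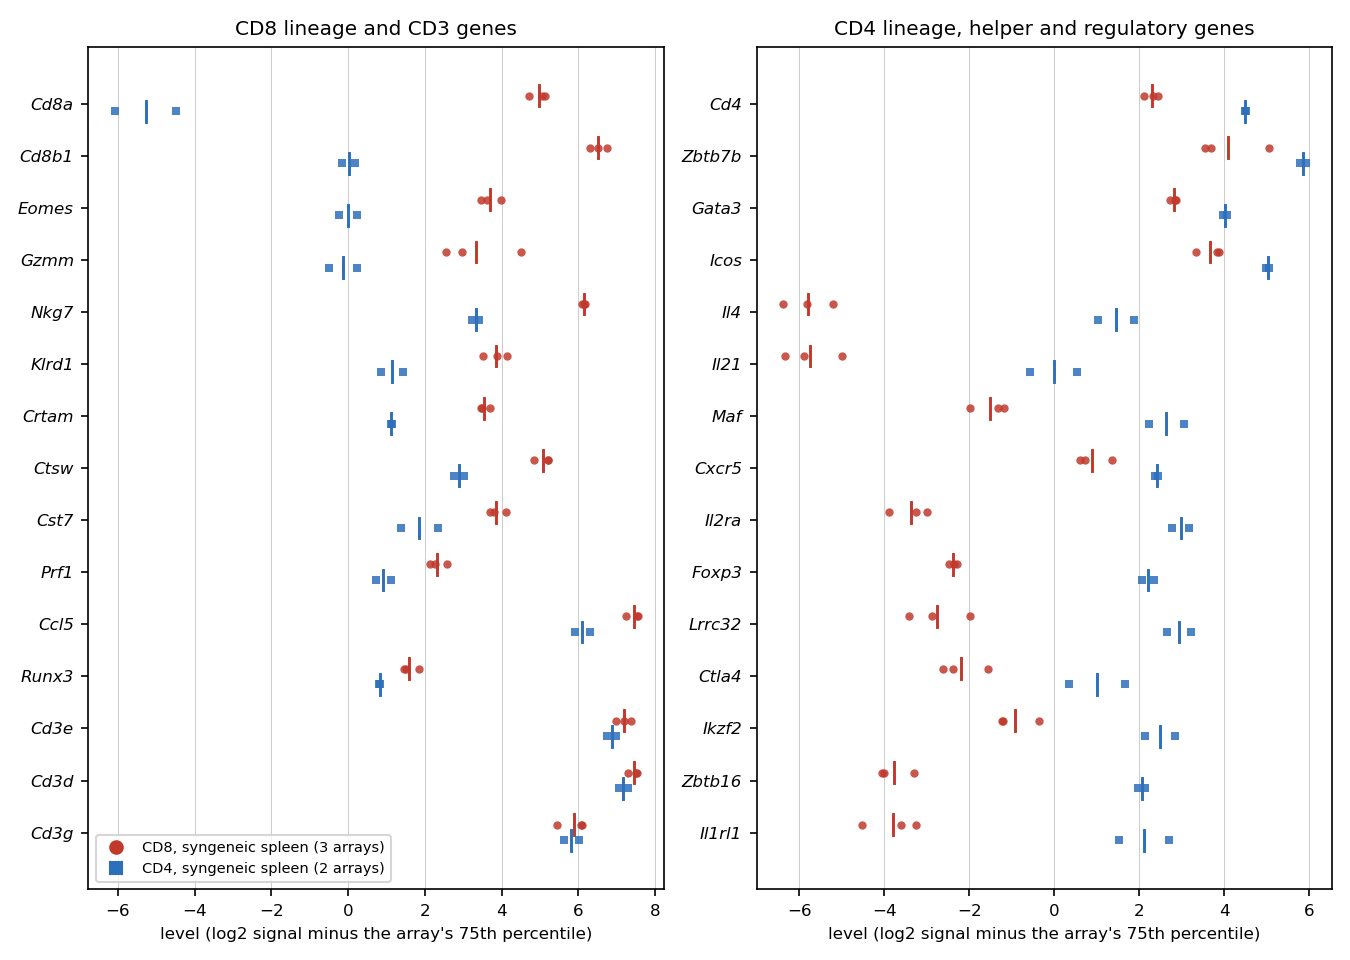
Levels (log2 signal minus the array's 75th percentile) of CD8 lineage and CD3 genes, left, and of CD4 lineage, helper and regulatory genes, right, on the 3 CD8 arrays (circles) and 2 CD4 arrays (squares); vertical bars are group means. The subsets separate at every gene shown except Cd3e and Cd3g, with a narrow gap for Cd3d (7.31 and above against 7.29 and below). Cd8a has the widest gap, 4.71 and above in CD8 cells against -4.48 and below in CD4 cells.

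The receptor machinery that both subsets share showed few calls. Called were 7.69% of the receptor complex, 4% of the signalling and 3.33% of the naive and memory genes, beside 3.95% of all features. Of 13 T-cell receptor and CD3 complex genes 1 was called (median -0.03), the costimulator Cd28, which was lower in CD8 cells at 3.86, 3.73 and 3.91, against 5.13 and 4.94 in CD4 cells (-1.21 ± 0.16, adjusted p = 0.000953). Among 25 signalling genes downstream of the receptor, Ptpn22, a phosphatase that restrains the receptor kinases, was the 1 call (0.85 ± 0.20, adjusted p = 0.0339), and it was lost without any 1 of the 5 arrays (adjusted p of 0.067 to 0.191). Of 30 naive and memory genes, 1 was called. It was Dapl1, at 6.38, 6.54 and 5.82 in CD8 cells, against 5.11 and 4.60 in CD4 cells (1.39 ± 0.23, adjusted p = 0.00399; 0.081 without CD4 array 2). Ccr7, the receptor for entry into lymph nodes, stood at 7.13, 7.12 and 7.11, against 7.0 and 6.72 (adjusted p = 0.785). Values for Il7r, 0.18 ± 0.27, and for the stemness factor Tcf7, 0.14 ± 0.14, did not pass either (adjusted p = 0.901 and 0.815).

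On the CD4 side, 14 of 17 lineage genes were called lower in CD8 cells and 0 higher (median -2.20), and of 17 regulators of helper fate 8 were lower and 0 higher (median -1.20). Zbtb7b, which encodes ThPOK, stood at 3.55, 3.69 and 5.06 on the CD8 arrays, against 5.92 and 5.79 on the CD4 arrays (-1.76 ± 0.41, adjusted p = 0.0325). CD8 array 3 was the high one of its group, and leaving out any 1 of the other 4 arrays ended the call (adjusted p of 0.119 to 0.179). Further Zbtb7b probes differed by -4.85 and -3.55, and the mean of the probes by -3.39 (adjusted p = 0.000344). Gata3, the regulator of type 2 helper cells, stood at 2.72, 2.88 and 2.85, against 3.97 and 4.06 (-1.20 ± 0.19, adjusted p = 0.00256), with little spread inside either subset. Maf, which drives interleukin-4 and interleukin-21 production, stood at -1.33, -1.18 and -1.99, against 2.23 and 3.05 (-4.14 ± 0.32, adjusted p = 2.53e-05). The regulator of innate-like T cells, Zbtb16 (PLZF), stood at -4.04, -4.01 and -3.29, against 1.97 and 2.15 (-5.84 ± 0.45, adjusted p = 2.41e-05). Rora, a factor of interleukin-17 producing and innate lymphoid cells, differed by -1.76 ± 0.33 (adjusted p = 0.00882) and lost its call without either CD4 array (0.0559 and 0.0901). When 1 array was left out, 10 to 14 CD4 lineage genes were called.

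Regulatory T-cell genes formed the largest lower group. Of 22 measured, 15 were called lower in CD8 cells and 0 higher, with a median of -2.34; 9 to 16 were called when 1 array was left out, the fewest without CD4 array 2, and the median was -1.21 after normexp background correction, which raises dim signals. Foxp3 stood at -2.48, -2.36 and -2.29 on the CD8 arrays, against 2.06 and 2.34 on the CD4 arrays (-4.58 ± 0.41, adjusted p = 5.51e-05). Il2ra, the alpha chain of the interleukin-2 receptor, stood at -2.99, -3.88 and -3.25, against 2.78 and 3.17 (-6.35 ± 0.39, adjusted p = 3.22e-06), and 2 of the 3 CD8 arrays were well above background. Lrrc32 (GARP), which anchors latent TGF-beta on regulatory cells, stood at -3.42, -2.89 and -1.98, against 2.65 and 3.23 (-5.70 ± 0.45, adjusted p = 2.53e-05). All 3 genes had groups that were several log2 units apart. Ikzf2 (Helios) differed by -3.42 ± 0.32, Ikzf4 (Eos) by -2.47 ± 0.31, the brake receptor Ctla4 by -3.19 ± 0.47 and Nrp1 by -2.39 ± 0.37 (adjusted p = 9.76e-05, 0.000622, 0.00181 and 0.00246). A further Ikzf4 probe differed by -0.09, and the mean of its probes by -1.69 (adjusted p = 0.000949). Izumo1r, the folate receptor 4 of regulatory and anergic cells, was at -0.16, -0.55 and -0.32, against 2.06 and 2.53, and lost its call without CD4 array 2 (adjusted p = 0.00713 and 0.103). In bulk samples, more cells of a type and more RNA per cell cannot be told apart.

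Follicular helper genes and cytokines were lower in CD8 cells too. The follicular list had 10 lower and 0 higher genes of 16 measured (median -1.69), and the cytokine list 8 lower and 0 higher of 17 (median -1.84, but -0.41 after normexp correction and -1.18 on slide 1 alone). Il4, the cytokine of type 2 and follicular help whose promoter is shown above, stood at -6.39, -5.83 and -5.20 on the CD8 arrays, against 1.04 and 1.87 on the CD4 arrays (-7.26 ± 0.68, adjusted p = 9.11e-05). No CD8 array was well above background, which put it at least 46.8-fold lower in CD8 cells. Il21, which drives germinal centre B cells, stood at -4.99, -6.34 and -5.89, against -0.57 and 0.54 (at least 16.9-fold lower, adjusted p = 2.56e-05). Ascl2, a factor that starts the follicular programme, was at least 17.2-fold lower (adjusted p = 0.000572), and Cxcr5, the receptor that guides cells into follicles, differed by -1.52 ± 0.29 (adjusted p = 0.0111; 0.0761 and 0.0896 without CD4 arrays 1 and 2). Il2, the T-cell growth factor, was dim in both subsets, at -4.49, -3.95 and -3.46, against -2.18 and -1.57 (-2.09 ± 0.48, adjusted p = 0.0281), and its call was lost in 4 of the 5 fits that left out 1 array, up to an adjusted p of 0.286. For Ifng, the subsets overlapped, with 2.54, 2.94 and 4.04, against 3.00 and 4.27 (adjusted p = 0.874). Tnf stood at 0.43, 0.42 and 1.09, against 0.85 and 1.29 (adjusted p = 0.742).

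Of 13 ligands of the TNF superfamily, 4 were lower in CD8 cells and 0 higher (median -0.80, and -0.40 after normexp correction). Tnfsf11 (RANKL), the osteoclast factor that T cells also use to stimulate dendritic cells, stood at -6.52, -6.40 and -4.74 on the CD8 arrays, against -0.91 and -0.08 on the CD4 arrays, at least 12.1-fold lower in CD8 cells (adjusted p = 4.83e-05). Cd40lg, the CD40 ligand of helper cells, was dim on all arrays, at -6.33, -6.18 and -5.72, against -3.80 and -3.34 (at least 1.44-fold lower, adjusted p = 0.00102). Lymphotoxin alpha, Lta, differed by -0.99 ± 0.14 (adjusted p = 0.00133).

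Receptors that tune the response were lower in CD8 cells in most of the calls. Among 17 costimulatory receptors 6 were lower and 1 higher, and among 19 inhibitory receptors 7 were lower and 1 higher (medians -0.21, or -0.46 after normexp correction, and -0.72). Tnfrsf4 (OX40) stood at 2.51, 2.35 and 2.76 on the CD8 arrays, against 4.49 and 5.16 on the CD4 arrays (-2.28 ± 0.32, adjusted p = 0.0015). Icos stood at 3.88, 3.83 and 3.33, against 5.0 and 5.05 (-1.34 ± 0.18, adjusted p = 0.00116), and Tnfrsf18 (GITR) differed by -1.14 ± 0.23 (adjusted p = 0.0137; 0.0648 and 0.139 without CD4 arrays 1 and 2). Cd226, a receptor that promotes killing, was the costimulator on the higher side (1.05 ± 0.27, adjusted p = 0.0491), with no call in any of the 5 fits that left out 1 array. Pdcd1 (PD-1) stood at 0.76, 0.90 and -0.29, against 2.10 and 2.70 (-1.94 ± 0.32, adjusted p = 0.00378; 0.0754 without CD4 array 2), and Tigit, a receptor for nectins, at -3.66, -4.12 and -4.13, against -1.97 and -1.98 (-2.0 ± 0.21, adjusted p = 0.000175). Klrg1, a receptor for cadherins, stood at -1.64, -2.43 and -3.88, against 1.78 and 1.66 (-4.37 ± 0.57, adjusted p = 0.000867). The inhibitory receptor on the higher side was Havcr2 (TIM-3), at 0.79, 1.09 and 2.56, against -2.14 and 0.27 (2.42 ± 0.60, adjusted p = 0.0435), and the call was lost without CD4 array 1, CD8 array 2 or CD8 array 3 (0.395, 0.0779 and 0.112).

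Cytokine receptors differed at a few genes by large amounts. Il17rb, a receptor for interleukin-25, stood at -6.57, -5.00 and -4.08 on the CD8 arrays, against 0.94 and 1.77 on the CD4 arrays, at least 43.6-fold lower in CD8 cells on the brightest probe (adjusted p = 0.00225). Another Il17rb probe differed by -2.41 (log2). Il1rl1 (ST2), the interleukin-33 receptor, stood at -3.25, -4.53 and -3.60, against 2.70 and 1.53 (-5.91 ± 0.42, adjusted p = 1.26e-05). In both genes every CD8 array was below 0 and every CD4 array above it. Of the 22 receptors in that list 4 were lower and 1 higher, which was Ifngr1, a chain of the interferon-gamma receptor, at 5.91, 6.29 and 6.17, against 5.32 and 5.12 (0.91 ± 0.17, adjusted p = 0.00722; 0.113 without CD4 array 2). Of 12 receptors of the common gamma chain family the call was Il2ra alone; Il2rb, the beta chain, differed by 0.11 ± 0.24 (adjusted p = 0.946). Cish, a feedback inhibitor induced by interleukin-2 signals, stood at 0.83, 0.91 and 1.09, against 2.94 and 3.30 (-2.18 ± 0.19, adjusted p = 4.37e-05), and Socs2 differed by -2.12 ± 0.52 (adjusted p = 0.0404, and 0.0876 to 0.35 in 4 of the 5 fits that left out 1 array). Further Socs2 probes differed by -1.29 and -1.39, and the mean of the probes was not called (adjusted p = 0.0508). Those were the 2 calls among 15 SOCS and STAT genes.

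Chemokines and their receptors moved both ways. Ccl5 (RANTES), kept by memory CD8 cells, stood at 7.24, 7.54 and 7.54 on the CD8 arrays, against 5.91 and 6.30 on the CD4 arrays (1.34 ± 0.24, adjusted p = 0.0061; 0.0726 without CD4 array 1). Cxcl9, a chemokine induced by interferon-gamma, mainly in myeloid cells, stood at 0.51, 1.02 and 1.89, against -3.51 and -2.82 (4.31 ± 0.52, adjusted p = 0.000511). Ccl9, at -5.39, -6.37 and -3.58, against -0.89 and -0.49, was lower (adjusted p = 0.00583; 0.0754 without CD4 array 2). Of 17 chemokine receptors, 5 were lower in CD8 cells and 1, Xcr1, was higher. Ccr6 stood at -0.16, -0.25 and 0.30, against 3.66 and 3.69 (-3.71 ± 0.32, adjusted p = 5.05e-05), and Ccr4, a receptor of regulatory and type 2 helper cells, differed by -4.57 ± 0.83 (adjusted p = 0.00688; 0.0557 and 0.0644 without CD4 arrays 1 and 2). For Cxcr3, the receptor for Cxcl9, the value was -0.51 ± 0.32 (adjusted p = 0.571). Among 28 homing and egress genes 4 were called, all lower, with Itgb3 (integrin beta 3) at 0.25, 0.21 and 0.13, against 3.38 and 2.73 (-2.86 ± 0.32, adjusted p = 0.000307).

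Receptors named for natural killer cells split by family. Of 22 measured, 3 were higher in CD8 cells and 5 lower. Klrd1 (CD94) stood at 3.88, 4.15 and 3.52 on the CD8 arrays, against 0.85 and 1.42 on the CD4 arrays (2.71 ± 0.24, adjusted p = 5.35e-05), and Crtam, a receptor that marks cytotoxic programming, at 3.46, 3.49 and 3.70, against 1.14 and 1.11 (2.43 ± 0.22, adjusted p = 6.86e-05). In both, the spread inside a subset was under 1 log2 unit. The Klrb1 family ran the other way: Klrb1c (NK1.1) stood at -5.72, -6.20 and -3.70, against -0.64 and 0.11 (at least 14-fold lower, adjusted p = 0.00688; 0.0971 without CD4 array 2), and a further Klrb1c probe differed by -1.88. Klrb1a was at least 12.9-fold lower (adjusted p = 0.00151). Members of the Klrb1 and Klra families are close in sequence, so their probes may share signal. Fcer1g, an adaptor of natural killer and myeloid cells, stood at -0.61, -0.76 and 0.70, against 1.98 and 3.76 (-3.09 ± 0.56, adjusted p = 0.00712; 0.129 without CD4 array 2). Ncr1, the receptor that defines natural killer cells, was well above background on 1 array of each subset.

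Programmes common to all lymphocytes held few calls. Called were 2.86% of cell cycle, 6.45% of type I interferon, 9.09% of glycolysis and 5.26% of class I genes. Of all features 3.95% were called. Of 35 cell cycle genes 1 was called, the cyclin Ccne1 (1.05 ± 0.21, adjusted p = 0.0142; 0.143 and 0.0587 without CD4 array 1 and CD8 array 1), and Mki67, the proliferation marker, stood at 1.67, 1.81 and 2.31 in CD8 cells, against 2.65 and 2.82 in CD4 cells (adjusted p = 0.114). Of 31 genes of the type I interferon response 2 were lower in CD8 cells, Oas1a (-1.26 ± 0.25, adjusted p = 0.0114; 0.134 without CD4 array 1) and Ly6a (Sca-1), which stood at 0.41, -0.45 and 0.80, against 3.61 and 3.50 (-3.30 ± 0.44, adjusted p = 0.00102). Glycolysis had 2 lower genes of 22, including Ldhb, a lactate dehydrogenase chain, at 0.92, 0.63 and 0.46, against 2.44 and 2.45 (-1.77 ± 0.23, adjusted p = 0.000868). Class I presentation had 1 higher gene of 19, Nlrc5, the class I transactivator (0.67 ± 0.17, adjusted p = 0.0494), with no call in any fit that left out 1 array. Of 36 oxidative phosphorylation and 24 cholesterol synthesis genes 0 were called. All 37 ribosomal protein genes lay between 0.30 and 0.54 with 0 calls and a median of 0.39, which was 0.04 after quantile normalization, where the median of all features was 0.06.

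**Figure D3:**
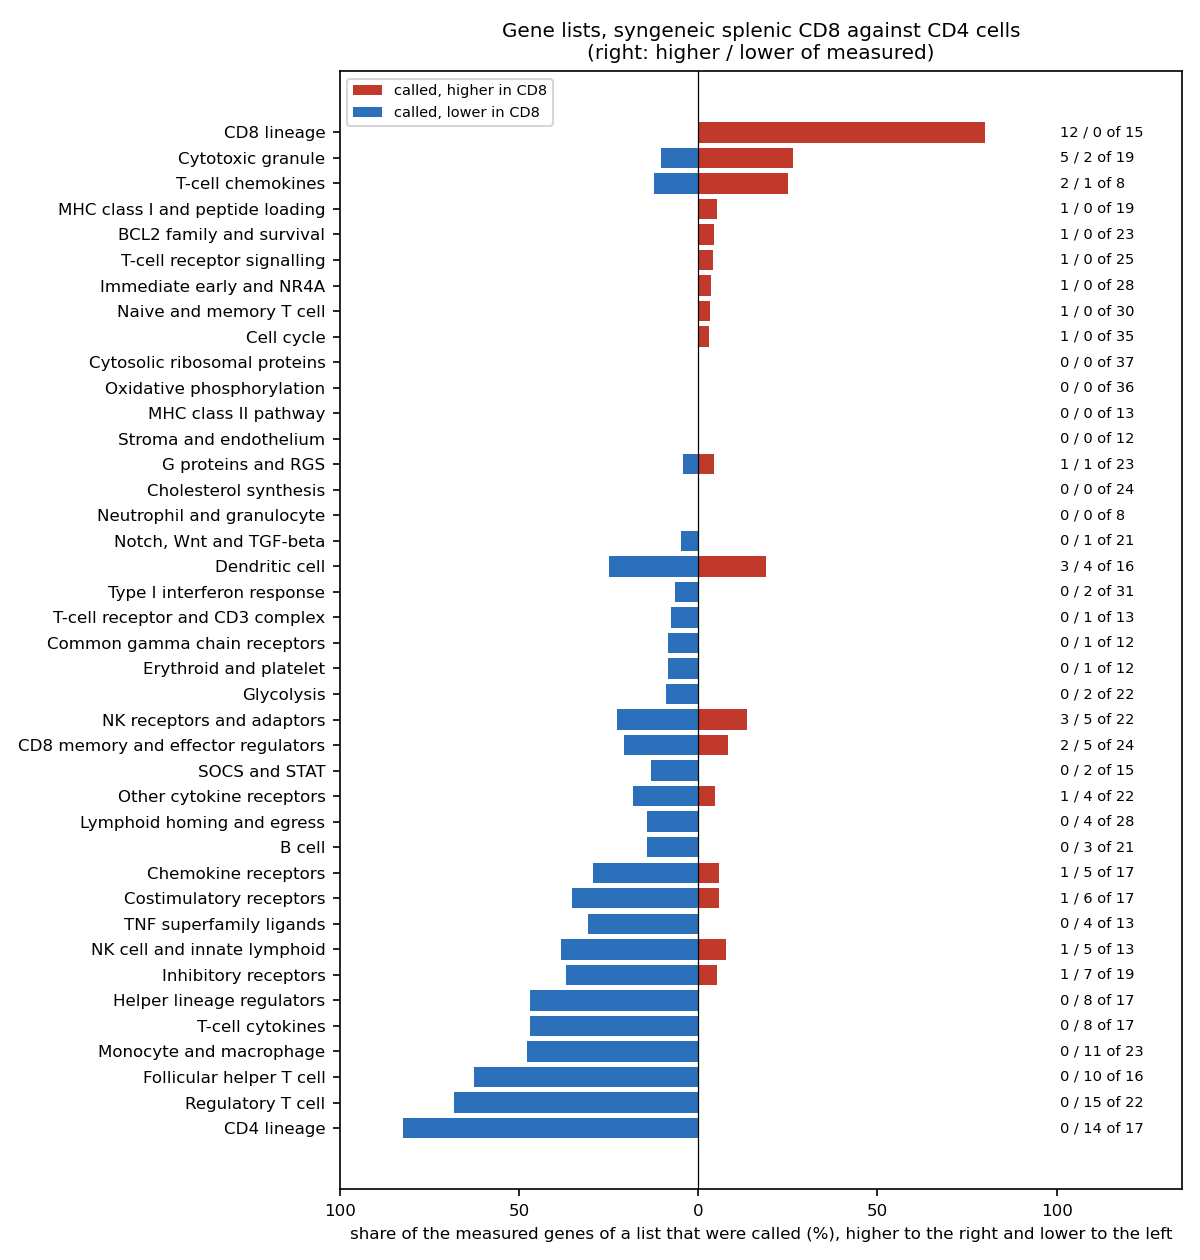
For 40 gene lists, the share of measured genes called higher (right) or lower (left) in CD8 cells, in percent, with the counts at the right edge. The CD8 lineage list has the highest share on the right, 12 of 15, and the CD4 lineage list the highest on the left, 14 of 17; ribosomal, oxidative phosphorylation and cholesterol genes have 0 calls.

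Genes of other splenic cells also differed between the subsets. Of 23 monocyte and macrophage genes 11 were lower in CD8 cells and 0 higher (median -1.80), and the summed signal of 5 defining markers, in units of the 75th percentile, was 6.14 to 9.48 on the CD8 arrays, against 15.6 to 27.8 on the CD4 arrays. Adgre1 (F4/80) stood at -3.51, -3.82 and -2.75, against 0.08 and 1.64 (-4.22 ± 0.71, adjusted p = 0.00434; 0.0871 without CD4 array 2), and C1qb, a complement chain made by macrophages, at -2.19, -2.73 and -2.43, against -0.34 and -0.24 (-2.16 ± 0.33, adjusted p = 0.0022). Without CD4 array 2, 1 gene of that list was called, and without both CD8 array 3 and CD4 array 2, 0 were. The dendritic cell list split: Xcr1, Clec9a and Cst3 were higher in CD8 cells, and Clec10a, Clec4a4, Klk1 and Tcf4 lower. When 1 array was left out, Cst3 and Klk1 lost the call in 1 fit each and Clec10a and Tcf4 in 3 each, up to an adjusted p of 0.117, 0.0806, 0.333 and 0.489. Xcr1 and Clec9a mark the cross-presenting dendritic cells, a type that in the mouse spleen also carries CD8 alpha. Xcr1 stood at -1.57, -1.23 and 0.43, against -6.53 and -5.75 (adjusted p = 0.00247), at least 10.9-fold higher in CD8 cells, and Clec9a at 2.21, 2.30 and 3.52, against -1.70 and 0.23 (3.41 ± 0.78, adjusted p = 0.0294, and 0.0592 to 0.282 in 4 of the 5 fits that left out 1 array). Clec4a4 (DCIR2), a marker of the other conventional type, of which many cells carry CD4, stood at -6.67, -6.51 and -6.10, against -3.00 and 0.09 (at least 6.22-fold lower, adjusted p = 0.00171). Itgax (CD11c) was at 2.28, 2.07 and 3.87, against 0.37 and 3.33, with overlap (adjusted p = 0.689).

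Of 21 B-cell genes 3 were lower in CD8 cells (Blnk, Vpreb3 and Cr2, each without a call when CD4 array 1 was left out, with an adjusted p of 0.0736, 0.357 and 0.328; median of the list -1.69, -2.45 on slide 1 and -0.90 on slide 2), and the sum of 4 defining markers was 13.2 to 20.9, against 28.3 to 60.8. The 4 natural killer markers summed to 3.99 to 15.8, against 14 to 58.9, with overlap. Tyrobp and Fcer1g were the brightest of the 4 on all 5 arrays, and Fcer1g is also an adaptor of myeloid cells. Ncr1 was well above background on 1 array of each subset. The 3 erythroid markers summed to 3.90 to 14.3, against 18.0 to 44.8. Hba-a1 was the brightest of the 3 on all 5 arrays, and its difference of -2.20 was not called (adjusted p = 0.793, limma). Of 13 class II genes 0 were called and the arrays of 2 did not overlap; H2-Aa stood at 2.05, 1.61 and 3.53, against 1.88 and 2.60, with overlap. Siglech and Csf3r, markers of plasmacytoid dendritic cells and neutrophils, had levels of 7.70 to 8.57 on all 5 arrays and made up most of their lists' summed signal. The part of these cells in the subset differences was not tested, and leaving out arrays does not test it. The Cd8a, Cd8b1, Eomes, Nkg7, Il4, Il21, Foxp3, Il2ra and Maf calls remained when any 1 of the 5 arrays was left out. Other members of the CD8 and CD4 lineage lists, such as Runx3, Ccl5, Zbtb7b, Rora, Cxcr5 and Ccr4, lost the call in at least 1 such fit.

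**Figure D4:**
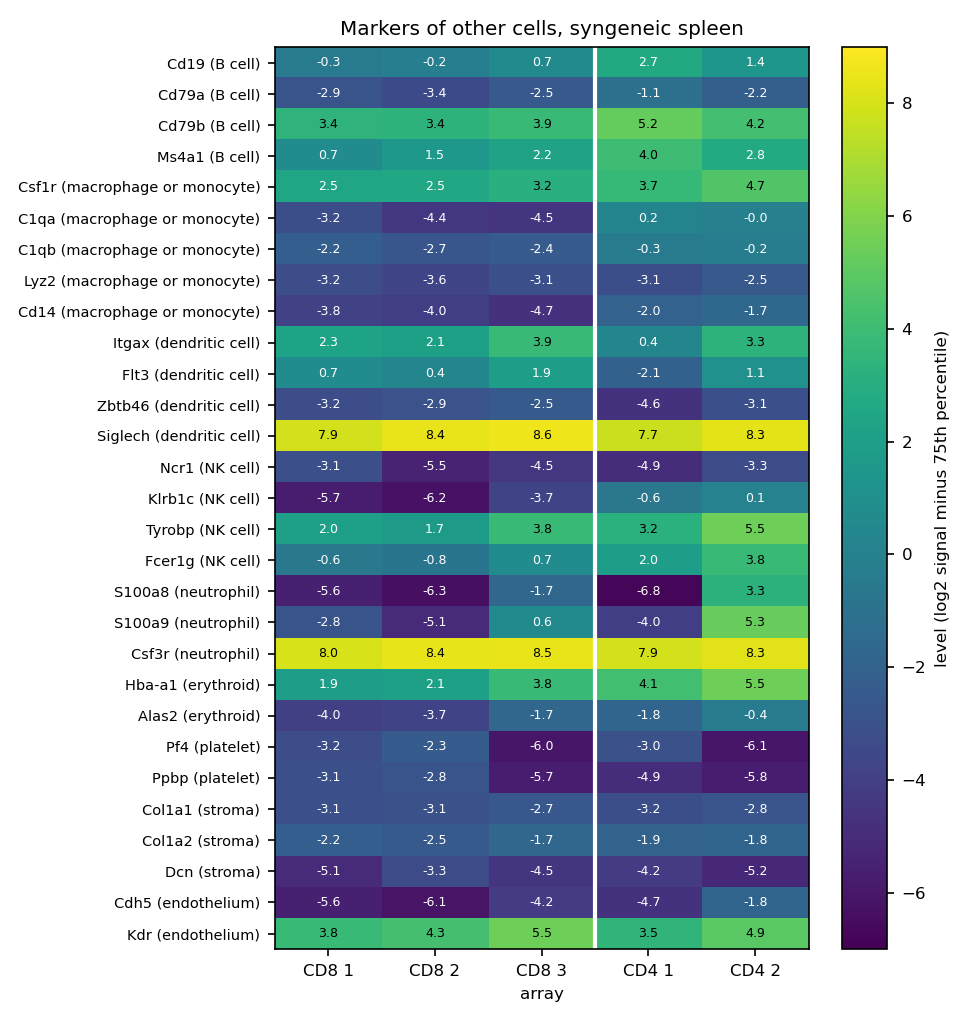
Levels (log2 signal minus the array's 75th percentile) of markers of cells other than T cells, 1 row per gene, on the 3 CD8 arrays and the 2 CD4 arrays. CD8 array 3 and CD4 array 2 have the higher values for S100a8, S100a9, Hba-a1 and Tyrobp within their subsets, and Siglech and Csf3r are bright on every array.

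The extremes of the comparison held genes outside these lists. After Cd8a, the highest differences belonged to Gpr141b, an orphan receptor, at 0.71, 0.80 and 3.26 on the CD8 arrays, against -6.8 and -6.02 on the CD4 arrays (at least 56.6-fold higher, adjusted p = 0.000233), and to Trnp1, a nuclear protein studied in neural progenitors, at 1.48, 1.81 and 2.83, against -6.62 and -2.91 (6.8 ± 0.85, adjusted p = 0.000622). Slc6a19, a transporter of neutral amino acids, stood at 0.41, 0.61 and -0.63, against -7.0 and -6.12 (at least 20.6-fold higher, adjusted p = 1.26e-05). A further Trnp1 probe differed by 3.41. CD8 array 3 was the highest for the first pair and the lowest for Slc6a19. Besides Cd8b1 and Xcr1, the other genes among the 15 largest were Gp2, Mab21l3, Htr7, Fndc5, Cd207, Rab7b, Ttc39a, Fam149a and Clec4b2, with differences of 4.47 to 6.33. In Cd207 (langerin), a lectin of Langerhans cells and of cross-presenting dendritic cells, the levels were -1.91, -0.94 and -0.58, against -6.72 and -5.82 (at least 8.51-fold higher, adjusted p = 0.000919). Calls for Ttc39a and Fam149a were lost without CD4 array 1 (adjusted p = 0.146 and 0.125).

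On the lower side, after Il4, came Tmem273, a membrane protein, at -5.91, -6.22 and -6.01 on the CD8 arrays, against 0.87 and 1.26 on the CD4 arrays (at least 35.7-fold lower, adjusted p = 1.94e-07). Ptpn5 (STEP), a tyrosine phosphatase best known in neurons, stood at -6.61, -6.46 and -5.78, against -0.46 and 0.06 (at least 14.9-fold lower, adjusted p = 1.85e-07). Both were tight within each subset. A second set varied between the CD4 arrays: Sirpb1b stood at -6.50, -6.38 and -3.29, against 0.09 and 3.21, Sirpb1a at -4.93, -5.42 and -2.68, against -0.30 and 2.74, and Klk1b5, a kallikrein, at -5.22, -6.33 and 0.06, against 1.38 and 4.46. CD8 array 3 and CD4 array 2 were the high arrays in all 3, whose calls were lost without CD4 array 2 (adjusted p = 0.0982, 0.0826 and 0.288). Klk1b5 also lost its call without CD8 array 1 or 2 (0.086 and 0.0764). The Sirpb1 and kallikrein genes have near copies, and their probes may share signal. The amino acid transporters Slc7a10 and Slc7a11 were at least 9.83-fold and 12.0-fold lower (adjusted p = 5.49e-06 and 0.00351). The CD4 arrays disagreed for Slc7a11, at -2.68 and 1.67. Its call was lost after normexp correction, with the common signal floor and with only the groups compared in the fit.

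Whether the subsets differed in the same way where an alloresponse was present was tested as an interaction, the subset difference in syngeneic spleen minus that in allogeneic spleen. Of the same 25297 features, 2771 were called (11%), 1659 with a higher (6.56%) and 1112 with a lower (4.4%) CD8 minus CD4 difference in syngeneic spleen, and 379 were called in both tests. The coreceptors did not pass: the interaction was -0.26 ± 0.64 for Cd8a, -1.01 ± 0.39 for Cd8b1 and 0.87 ± 0.29 for Cd4 (adjusted p = 0.821, 0.115 and 0.0746). Values for Foxp3, -1.17 ± 0.57, Nkg7, 0.79 ± 0.24, Gata3, -0.35 ± 0.26, and Il4, -2.34 ± 0.97, did not pass either (adjusted p = 0.2, 0.0525, 0.409 and 0.135). The allogeneic CD4 arrays included the dimmest array of the series.

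Several effector genes had a larger or opposite subset difference in allogeneic spleen. Prf1 differed by 1.4 in syngeneic and by 3.45 in allogeneic spleen (interaction -2.05 ± 0.24, adjusted p = 0.00059). Fasl turned direction, with -1.81 in syngeneic and 2.54 in allogeneic spleen (-4.35 ± 0.52, adjusted p = 0.000627), and Pdcd1 likewise, with -1.94 and 1.51 (-3.45 ± 0.45, adjusted p = 0.00106). Tigit, Zbtb32 and Hic1 also had opposite signs, at -2.0, -1.38 and -2.28 in syngeneic and 0.57, 2.54 and 1.78 in allogeneic spleen (adjusted p of the interaction = 0.000504, 0.00013 and 0.000729). In the syngeneic comparison alone, Zbtb32 lost its call without CD4 array 1 and Hic1 without CD4 array 2 (adjusted p = 0.0832 and 0.0507). Of 35 cell cycle genes 23 had a lower difference in syngeneic spleen and 0 a higher one; Ccnb2, a mitotic cyclin, differed by -0.70 in syngeneic and 2.23 in allogeneic spleen (-2.93 ± 0.26, adjusted p = 9.43e-05). Among 30 naive and memory genes 6 had a higher difference in syngeneic spleen and 2 a lower one, with Il7r at 2.78 ± 0.37, Tcf7 at 1.88 ± 0.20 and Ccr7 at 2.27 ± 0.35 (adjusted p = 0.00134, 0.00036 and 0.00303). Eomes was higher in CD8 cells in both settings and more so in syngeneic spleen (1.31 ± 0.32, adjusted p = 0.0251).

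Most genes with the widest interactions had opposite signs in the 2 settings. For Mab21l3, Clec4b2 and Apol7c no allogeneic array was well above background, so the sign there gives no direction. Gp2 and Exoc3l4 had 1 allogeneic array well above background each. Zbtb16 stood at -4.04, -4.01 and -3.29 on syngeneic CD8 and 1.97 and 2.15 on syngeneic CD4 arrays, against -1.11, -1.10 and -0.65 on allogeneic CD8 and -3.04 and -4.40 on allogeneic CD4 arrays (interaction -8.61 ± 0.64, adjusted p = 3e-05). It was therefore low in CD8 cells of syngeneic spleen and low in CD4 cells of allogeneic spleen. Tmem273 had 0.94, 0.82 and 1.51 on allogeneic CD8 arrays and -0.91 and -1.22 on allogeneic CD4 arrays (-9.27 ± 0.45, adjusted p = 1.42e-06), and Ptpn5 was above background in both allogeneic subsets (-7.01 ± 0.35, adjusted p = 1.42e-06). Cxcl9 ran the other way, at -1.69, -2.01 and -0.70 on allogeneic CD8 arrays and 1.46 and -0.09 on allogeneic CD4 arrays (6.46 ± 0.74, adjusted p = 0.000504). Mab21l3 (8.22 ± 0.68), Gp2 (6.79 ± 1.16), Clec4b2 (6.62 ± 0.76) and Slc6a19 (6.36 ± 0.67) also had higher values in syngeneic spleen; they passed the filter on dim probes only through the syngeneic CD8 arrays. The sign was the same in both settings for Slc6a19, at 6.69 in syngeneic and 0.34 in allogeneic spleen. The other genes at the extremes were Exoc3l4 and Apol7c on the higher side and Epdr1, Klrb1a, Mcf2l and Clec10a on the lower. Exoc3l4 and Apol7c also passed the filter only through the syngeneic CD8 arrays. Tmem273, Ptpn5, Epdr1, Klrb1a, Mcf2l and Clec10a passed it only through the syngeneic CD4 arrays, the higher subset there. The allogeneic CD4 arrays disagreed for Rhoc, at -3.89 and 3.22 (interaction adjusted p = 0.0405).

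**Figure D5:**
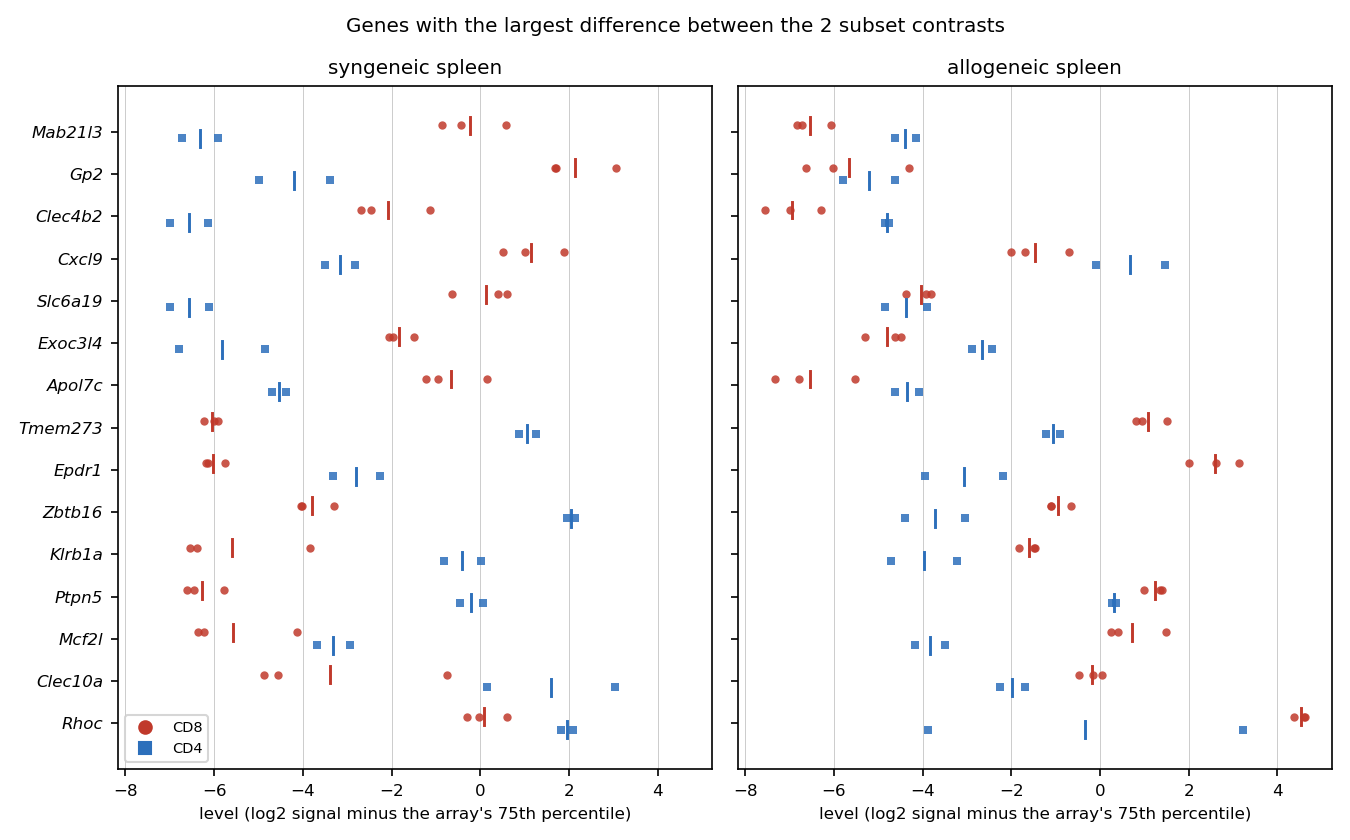
Levels (log2 signal minus the array's 75th percentile) of genes with the highest (upper rows) and the lowest (lower rows) interaction, in syngeneic spleen, left, and allogeneic spleen, right; circles are CD8 arrays, squares CD4 arrays, vertical bars group means. Zbtb16, Tmem273 and Cxcl9 have their CD8 and CD4 arrays on opposite sides in the 2 panels, and the 2 allogeneic CD4 arrays of Rhoc lie far apart.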

How the data were processed

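RNA of sorted donor T cells was hybridised to Agilent one-colour mouse arrays, 16 in the series. The deposited scanner files hold processed spot intensity after background subtraction; per the file headers, the scanner software was version 11.5.1.1 of Agilent's Feature Extraction. The authors' deposited value table holds log2 values; its columns correlated with the levels used here at 0.9998 or more, its array medians ran from -0.344 to 0.494, and its scaling and centring are not given in the sources used here. Levels are log2 intensity minus each array's 75th percentile over non-control spots. Probes well above background on every array of either subset were kept (29281 of 55681), which gave 25297 features, 13044 of them with a symbol. A gene with several probes was represented by its brightest probe over all arrays; of 166 further probes for 138 called genes, 3 differed in the opposite direction. Gene symbols came from the files and from RefSeq tables, with 28025 probes left unnamed.

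The means of the 6 groups were fitted to all 16 arrays with limma 3.58.1 in R 4.3.3 (10 residual and 2.21 prior degrees of freedom), and p-values were adjusted by Benjamini-Hochberg over all features at 0.05. The fit was tested on simulated data. A gene is said to be at least N-fold different where the lower subset had no array well above background. Named were the 15 largest calls in each direction, the 8 largest interactions in each direction, members of the 40 gene lists and the coreceptor, CD3e, Zbtb7b and Runx3 genes. Of the 768 distinct list members, those without a kept named probe were not analysed here, and a few named genes are not reported here. Members and lists were chosen with earlier results of these data known. Alternatives covered normalization, filters, probe choice, slide, replicate block, samples in the fit, array weights, variance model, a 2-fold threshold and leaving out arrays; a signal floor, leaving out both arrays that stood apart and 2 further feature filters were chosen after seeing the data. Few arrays limit the precision.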

Additional observations from a re-analysis of the deposited data

Results flagged for a closer look

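The subset difference, CD8 minus CD4, differed between syngeneic and allogeneic spleen by the interaction test for 54 of the genes named above. The values are log2 differences of differences, syngeneic minus allogeneic, and the interaction was called for 11% of all features. Genes with a lower value in syngeneic spleen and opposite signs in the 2 settings were Tmem273 (-9.27), Epdr1 (-8.89), Zbtb16 (-8.61), Klrb1a (-7.56), Ptpn5 (-7.01), Mcf2l (-6.81), Clec10a (-6.78), Rhoc (-6.73), Klrb1c (-5.31), Fasl (-4.35), Hic1 (-4.06), Zbtb32 (-3.92), Pdcd1 (-3.45), Ccnb2 (-2.93), Tcf4 (-2.77), Nrp1 (-2.65), Tigit (-2.57) and Mki67 (-1.96). Genes with a lower value and the same sign in both were Il17rb (-6.32), Gzma (-5.27), Il1rl1 (-4.60), Slc7a10 (-4.46), Klrg1 (-4.07), Il2ra (-3.78), Il21 (-3.61), Ccr6 (-3.17), Ikzf2 (-2.63), Gzmb (-2.43), Itgb3 (-2.39), Ikzf4 (-2.36), Ly6a (-2.28), Gzmk (-2.09), Prf1 (-2.05), Rora (-1.76), Cish (-1.43) and Il2rb (-1.14). Genes with a higher value in syngeneic spleen and opposite signs were Ifngr1 (1.42), Tcf7 (1.88), Dapl1 (2.22), Ccr7 (2.27), Il7r (2.78), Cd207 (5.43), Apol7c (6.06), Exoc3l4 (6.12), Cxcl9 (6.46), Clec4b2 (6.62), Gp2 (6.79) and Mab21l3 (8.22). Genes with a higher value and the same sign were Eomes (1.31), Lta (1.33), Htr7 (4.05), Gpr141b (4.35), Trnp1 (4.89) and Slc6a19 (6.36). A difference in sign includes values near 0 in 1 setting. It also includes Mab21l3, Clec4b2, Apol7c and Cd207, for which no allogeneic array was well above background. The filter on dim probes used the syngeneic arrays alone. The allogeneic CD4 arrays were dimmer than the syngeneic ones, and the part of signal strength in these differences was not tested.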

How the results depend on the processing

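The count of 998 features called between the subsets was 621 with no filter, 537 with a filter on all 5 arrays, 591 on slide 1 alone, 0 on slide 2 alone (limma; 2328 at an unadjusted p under 0.05), 487 with only the groups compared in the fit, 1707 with estimated array weights and 434 without CD8 array 3 and CD4 array 2. It was 399 to 984 when 1 array was left out, the fewest without CD4 array 2 and 637 and 647 without CD8 arrays 1 and 2. The interaction count of 2771 was 1077 with no filter, 0 on slide 2 alone (limma; 3283 at an unadjusted p under 0.05), 954 with only the groups compared, 1536 with array weights, 1155 without both arrays that stood apart and 1574 for features with a symbol, and 1215 to 4448 when 1 array was left out. The share of higher calls was 48.8% with the common signal floor, against 31.5% in the main comparison, and for the interaction 42.9% with named features, 48.2% with weights, 48.7% on slide 1 alone and 50.6% with no filter, against 59.9%. With the replicate number as a block the counts were 949 and 3465; the deviations of same-numbered arrays correlated at 0.466 and -0.286, so the numbers were not taken to pair the samples. Signs were compared only for a selection of the genes named above, and not for all called features. Within that selection, no gene called in the main fit or under the alternative changed sign. In the same selection 12 uncalled genes, among them Ifng, Gzma, Cd3g, Cd3d, Itgax and S100a9, did under at least 1 alternative. The cause of these shifts was not tested, except that fewer arrays or features enter some fits. Fits on 1 slide or without a syngeneic CD4 array left 1 such array, and slide 1 also held 1 syngeneic CD8 array. Their counts therefore do not rest on spread between syngeneic CD4 arrays. Probes near background limit the size of differences, and 2 or 3 arrays per subset limit the calls.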
